A study of Mus musculus with 6 samples.

Results

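The genes described here are the core of the G1 switch: the 3 D-type cyclins (*Ccnd1*, *Ccnd2* and *Ccnd3*), the 2 kinases they activate (*Cdk4* and *Cdk6*), and 5 cyclin-dependent kinase (CDK) inhibitors, of which *Cdkn1a* and *Cdkn1b* belong to the CIP/KIP family and *Cdkn2a*, *Cdkn2c* and *Cdkn2d* to the INK4 family. They were chosen by name for their role, with earlier results of these data known, and are 10 of the 53060 genes or merged loci in the count table. All 10 passed the filter on low counts and are among the 19073 genes tested. RNA came from neural progenitor cells (NPCs) grown from ganglionic eminences of e13.5 mouse fetuses as neurospheres, free-floating balls of dividing cells, in medium with 20 ng/ml of epidermal growth factor, and was taken at passage 2. There were 3 cultures from *Armc5*(-/-) fetuses (KO NPCs) and 3 from *Armc5* wild-type fetuses (WT NPCs), with the same medium and growth factor in both. The labels give the strain as 129 sv X CD1, whereas the study's methods give a CD1 x C57BL/6 F1 background, and no promoter or cell type that limits the deletion is named. ARMC5 is a substrate adaptor of a CUL3 ubiquitin ligase that acts on RNA polymerase II, and the study asked how its loss bears on the proliferation of NPCs, including their passage from G1 into S phase. The study reported that KO NPCs proliferated more slowly and, after release from a block in G1, moved more slowly into S phase. The comparison below addresses the transcript side of the question.

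Growth factors induce D cyclins, which bind CDK4 and CDK6 and start the phosphorylation of the retinoblastoma protein, so that E2F transcription factors are released and the genes of S phase are switched on. INK4 proteins bind CDK4 and CDK6 and keep cyclin D away, while p21 and p27, the products of *Cdkn1a* and *Cdkn1b*, bind complexes of cyclins and CDKs and block CDK2. In neural progenitors, cyclin D1 and cyclin D2 are the D cyclins in use, the length of G1 is linked to the choice between renewal and differentiation, and p27 accumulates as cells leave the cycle.

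One library stood apart before any result is read. KO NPC 3 had the lowest total count at loci that name a gene (52995791, against 66018919 to 85170379 in the other 5 libraries), the highest share of counts at loci that name none (4.89%, against 1.31% to 1.72%) and the highest TMM scaling factor (1.11, against 0.956 to 1.01). Its dividing-cell genes were low: the summed level of 12 genes of G2 and M phase was 92.1 CPM there (counts on a common library size after TMM scaling) against 2512 to 3017 CPM in the remaining 5, and that of 17 E2F targets of S phase was 286 CPM there and between 2252 and 2868 CPM elsewhere. Glial genes were high in the same library, with 7 astrocyte markers at 2721 CPM against 840 to 1358 CPM, and 10 markers of the oligodendrocyte lineage at 4240 CPM against 2626 to 3767 CPM. The 10 progenitor markers summed to 3229 CPM in KO NPC 3 and to between 4242 and 4908 CPM elsewhere. Among them, *Sox2* was at 812 CPM in KO NPC 3 against 536 to 626 CPM and *Nes* at 75.9 CPM against 356 to 484 CPM. The study described both as similarly expressed in KO and WT NPCs by RNA-seq. Between genotypes, the log2 fold change was 0.20 (standard error 0.20) for *Sox2* and -0.34 (standard error 0.61) for *Nes*. Without KO NPC 3 these were 0.01 and 0.12. The 9 neuron markers summed to 1379 CPM in KO NPC 3 and to 803 to 1474 CPM in the other 5, a sum carried by *Map2* (908 CPM in KO NPC 3). Of the 9, 5 were highest in KO NPC 3, among them *Dcx* and *Gad1*, but WT NPC 3 was high for both as well. *Dcx* was at 287 CPM in KO NPC 3, 232 CPM in WT NPC 3 and 17.3 to 64.1 CPM in the rest. *Gad1* was at 66.4 CPM in KO NPC 3, 39.2 CPM in WT NPC 3 and 4.90 to 6.58 CPM in the rest. The 5 microglia markers stayed at 0.433 to 1.33 CPM in all 6 libraries, the 4 endothelial markers were at 15.4 CPM in KO NPC 3 and 3.02 to 4.78 CPM elsewhere (with *Kdr* at 14.8 CPM and *Cdh5* at 0 in KO NPC 3), the 5 fibroblast markers were at 60.2 CPM and 1.82 to 7.58 CPM (with *Pdgfrb* at 58.5 CPM), and the haemoglobin genes at no more than 0.234 CPM. In a bulk culture, fewer cells of a type and less RNA per cell cannot be told apart. The part that these differences have in the values below was not tested. The log2 fold changes and count ratios of the 10 genes are given with and without KO NPC 3, as are the medians of most lists.

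Values of single libraries are given below in the order of their replicate numbers 1, 2 and 3, for KO and then for WT. *Armc5* itself had 84, 119 and 43 counts in KO and 1966, 2114 and 1797 counts in WT libraries, so all 6 matched their labels. The log2 fold change of KO over WT (log2FC below) was -4.68, with a standard error (SE) of 0.36 and an adjusted p = 0.0864 from the quasi-likelihood test of edgeR, adjusted over the 19073 genes by the Benjamini-Hochberg method.

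Promoter sequence was looked up in RefSeq on GRCm38.p6, and 8 of the 10 genes had an entry. The 250 bases before the start site are shown for both kinases, whose levels in the WT NPCs lay far apart, and for both start sites of *Cdkn2a*, since the table gives 1 count for the pair. *Cdk4* is shown from chr10:127063285-127063534 on the plus strand, *Cdk6* from chr5:3343643-3343892 on the plus strand, and *Cdkn2a* from chr4:89294620-89294869 (start 1, upstream, for p19Arf) and chr4:89282193-89282442 (start 2, for p16Ink4a), both on the minus strand. Each runs 5′ to 3′ on the strand of the gene, and capitals mark every match, on either strand, to the motifs GGGCGG (the GC box), TATAAA (the TATA box), CACGTG (the E-box bound by MYC and its relatives), TTTGGCGC and TTTCCCGC (E2F) and CCAAT (the CCAAT box).
Cdk4: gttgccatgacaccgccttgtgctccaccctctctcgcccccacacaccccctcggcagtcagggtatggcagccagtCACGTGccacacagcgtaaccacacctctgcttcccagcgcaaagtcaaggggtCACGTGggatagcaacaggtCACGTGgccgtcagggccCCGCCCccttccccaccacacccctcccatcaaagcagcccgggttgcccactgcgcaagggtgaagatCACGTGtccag
Cdk6: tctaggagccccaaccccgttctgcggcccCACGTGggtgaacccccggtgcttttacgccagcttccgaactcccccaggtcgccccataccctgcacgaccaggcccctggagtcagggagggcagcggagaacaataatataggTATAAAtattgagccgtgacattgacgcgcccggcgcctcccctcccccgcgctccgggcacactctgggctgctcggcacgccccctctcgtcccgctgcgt
Cdkn2a start 1: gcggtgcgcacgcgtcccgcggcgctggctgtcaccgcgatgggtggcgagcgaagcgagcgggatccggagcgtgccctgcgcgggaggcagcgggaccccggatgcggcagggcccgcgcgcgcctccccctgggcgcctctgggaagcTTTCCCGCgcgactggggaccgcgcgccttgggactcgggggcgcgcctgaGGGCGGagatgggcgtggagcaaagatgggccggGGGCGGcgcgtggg
Cdkn2a start 2: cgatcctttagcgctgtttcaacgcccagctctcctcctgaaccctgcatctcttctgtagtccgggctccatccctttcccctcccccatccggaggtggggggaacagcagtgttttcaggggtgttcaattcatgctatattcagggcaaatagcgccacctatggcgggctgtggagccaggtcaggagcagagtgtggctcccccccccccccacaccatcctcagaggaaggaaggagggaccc
The *Cdk4* window held 4 matches to CACGTG and 1 to GGGCGG, and the *Cdk6* window 1 to CACGTG and 1 to TATAAA. *Cdkn2a* start 1 held 2 matches to GGGCGG and 1 to TTTCCCGC, and start 2 held none. In these windows no match overlapped another. Among the 32851 windows of the same length in the table, GGGCGG was found in 32.7%, TATAAA in 12.4%, CACGTG in 6.02%, TTTGGCGC in 0.417%, TTTCCCGC in 0.895% and CCAAT in 33.8%. These matches describe the letters only.

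In the WT NPCs, the order of levels among the 10 genes was read as CPM per kilobase of the gene's counted exons, since longer genes collect more reads. *Ccnd1* was the highest, at 258 ± 68.5 CPM per kilobase (SD, n = 3), followed by *Cdk4* at 109 ± 5.26 and *Ccnd2* at 57.9 ± 20.2 CPM per kilobase. Below these came *Cdkn1b* at 21.6 ± 3.42, *Cdkn2c* at 16.4 ± 1.53, *Cdkn1a* at 16.3 ± 7.21 and *Cdkn2d* at 9.35 ± 0.833 CPM per kilobase. The lowest were *Cdkn2a* at 4.11 ± 2.28, *Ccnd3* at 3.42 ± 2.14 and *Cdk6* at 3.03 ± 0.942 CPM per kilobase. Cyclin D1, CDK4 and cyclin D2 transcripts thus led the set, and the ranges of their WT libraries did not overlap each other. *Cdkn1a* did not differ beyond its spread from *Cdkn1b* and *Cdkn2c*, nor did the lowest 3 from each other. *Cdkn2c* has an uncertain place: the table's counted length is 6053 bases because of an assembled transcript, against 2686 bases in GENCODE M21, and with the latter its level was 37.0 ± 3.45 CPM per kilobase, above *Cdkn1b*. Of the D cyclin transcripts, per kilobase, *Ccnd1* made up 73.6% to 86.3% in the 5 libraries other than KO NPC 3 and *Ccnd2* 11.7% to 25.3%, with *Ccnd3* at 0.417% to 1.94%. In KO NPC 3 the shares were 33.7% for *Ccnd1*, 51.4% for *Ccnd2* and 15.0% for *Ccnd3*, so *Ccnd2* was the leading D cyclin in that library alone. *Cdk4* made up 96.6% to 98.3% of the *Cdk4* and *Cdk6* total per kilobase in all 6 libraries.

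Across the whole set, no gene passed the test between genotypes. Of the 10 genes, 9 had a log2FC below 0 and 1 above 0, with a median of -0.38 (all genes tested, -0.01), and without KO NPC 3 6 were below 0 and 4 above, with a median of -0.07. Of the 10 genes, 0 reached an adjusted p under 0.05 in the quasi-likelihood fit, against 0.0% of all genes tested, and 0 reached an unadjusted p under 0.05, against 1.61%. After adjustment that test did not call even the deleted gene *Armc5* (log2FC -4.68, adjusted p = 0.0864). Its count of 0 therefore cannot show that the 10 genes were unchanged. By the likelihood ratio test 0 of the 10 were called (0.0891% of all genes), and by DESeq2 0 of the 10 (0.184%). There was also no gene of the 10 whose KO and WT libraries did not overlap (6.02% of all genes).

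**Figure D1:**
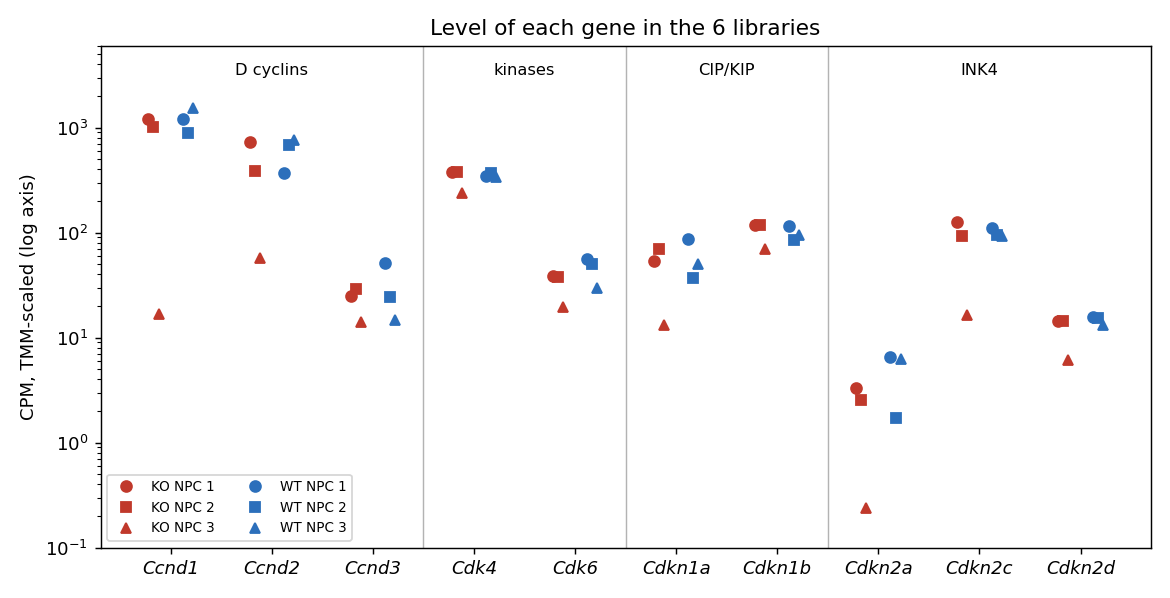
CPM on TMM-scaled library sizes (log axis) of the 10 genes by role, with 1 point per library, red for KO and blue for WT, and the replicate number given by the shape. KO NPC 3 (red triangle) is the lowest point for all 10 genes, from 16.9 CPM for *Ccnd1*, against 891 to 1536 CPM elsewhere, to 14.0 CPM for *Ccnd3*, against 14.7 CPM in the next library.

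*Ccnd1* encodes cyclin D1, the D cyclin that most directly follows growth factor signalling, and lies on chromosome 7 from 144929931 to 144939925 (GRCm38, as are all loci below). It was at 1218, 1024 and 16.9 CPM in KO and at 1215, 891 and 1536 CPM in WT libraries. KO NPC 1 and 2 lay within the WT range, and KO NPC 3, with 998 counts against 63767 to 105231 in the other libraries, was 52.6-fold below the lowest of them. The log2FC was -0.69 (SE 1.18, 95% interval -3.53 to 2.15, edgeR adjusted p = 0.983), and without KO NPC 3 it was -0.11 (95% interval -0.72 to 0.49). With all 6 libraries the interval covers changes of several fold in either direction.

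*Ccnd2*, on chromosome 6 from 127125162 to 127155383, encodes cyclin D2, which many progenitors of the developing brain use beside or after cyclin D1. It was at 735, 384 and 57.2 CPM in KO and at 366, 678 and 768 CPM in WT libraries. The low library again was KO NPC 3, 6.39-fold below the lowest of the others, while the remaining 5 spread by 2.10-fold without a split by genotype. KO over WT gave a log2FC of -0.62 (SE 0.82, 95% interval -2.59 to 1.35), and -0.11 (95% interval -1.14 to 0.93) without KO NPC 3.

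*Ccnd3*, on chromosome 17 from 47505051 to 47599691, encodes cyclin D3, which is best known from blood cells and muscle. Its levels were 25.1, 29.0 and 14.0 CPM in KO and 50.9, 24.4 and 14.7 CPM in WT libraries. Here the WT libraries spread more than the KO libraries, and KO NPC 3 was only 1.05-fold below WT NPC 3, its neighbour. Between genotypes, the log2FC was -0.40 (SE 0.50, 95% interval -1.61 to 0.81), -0.15 (95% interval -1.48 to 1.17) without KO NPC 3, and 0.22 without WT NPC 1, the highest library. The end of the locus overlaps *Bysl*, as the loci of *Ccnd1* and *Cdk4* overlap *LTO1* and *Tspan31*, and whether the counting used the strand is not stated. The ratio of *Ccnd1* to *Ccnd2* counts within a library, which no scaling can alter, was 0.73, 1.42 and -1.76 on the log2 scale in KO and 1.73, 0.39 and 1.00 in WT libraries. The mean was 0.13 ± 1.67 (SD, n = 3) in KO and 1.04 ± 0.67 (SD, n = 3) in WT NPCs (difference -0.91, two-sided exact permutation p = 0.6, 0.8 after adjustment over 4 ratios, where 0.1 is the smallest p that 3 libraries against 3 allow). Only KO NPC 3 had less *Ccnd1* than *Ccnd2*, and without it the difference was 0.03.

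*Cdk4*, on chromosome 10 from 127063534 to 127067920, encodes the kinase partner of the D cyclins that most cells carry at a steady level. It was at 376, 374 and 241 CPM in KO and at 347, 373 and 341 CPM in WT libraries. It was the most even of the set, with a 1.10-fold range over the 5 libraries other than KO NPC 3, which was 1.41-fold below the lowest of them. Over all 6 libraries, the log2FC was -0.10 (SE 0.21, 95% interval -0.61 to 0.42), and 0.09 (95% interval -0.14 to 0.31) without KO NPC 3.

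*Cdk6*, on chromosome 5 from 3341069 to 3531644, encodes the second D cyclin kinase. Its levels were 39.0, 38.0 and 19.6 CPM in KO and 56.5, 50.6 and 29.6 CPM in WT libraries. The library numbered 3 was the lowest of each genotype, and the KO library was lower than the WT library of the same number each time, at 0.690, 0.751 and 0.665 of its level. The log2FC was -0.50 (SE 0.36, 95% interval -1.36 to 0.36, edgeR adjusted p = 0.983), and -0.25 (95% interval -0.99 to 0.49) without KO NPC 3. With the replicate number as a block it was -0.51 (SE 0.17, 95% interval -0.96 to -0.07), with an unadjusted p = 0.0324 and, over all genes, an adjusted p = 0.968 in edgeR. In that fit it was the only gene of the 10 at an unadjusted p under 0.05, a mark that 2.05% of all genes tested reached, and the likelihood ratio test with the block gave it an unadjusted p = 0.0909. With both libraries numbered 3 left out it was -0.48 (95% interval -0.81 to -0.16, edgeR adjusted p = 1.00). Within the same number, KO was lower in all 3 for 2 of the 10 genes, *Cdk6* and *Cdkn2d*, against 11.6% of all genes tested, and higher in all 3 for 0 of the 10, against 10.9%. The log2 ratio of *Cdk4* to *Cdk6* counts was 3.27, 3.30 and 3.62 in KO and 2.62, 2.88 and 3.53 in WT libraries. It averaged 3.40 ± 0.19 (SD, n = 3) in KO and 3.01 ± 0.47 (SD, n = 3) in WT NPCs (difference 0.39, two-sided exact permutation p = 0.3, adjusted 0.8), and the groups overlapped through WT NPC 3. Without KO NPC 3 the difference was 0.28.

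**Figure D2:**
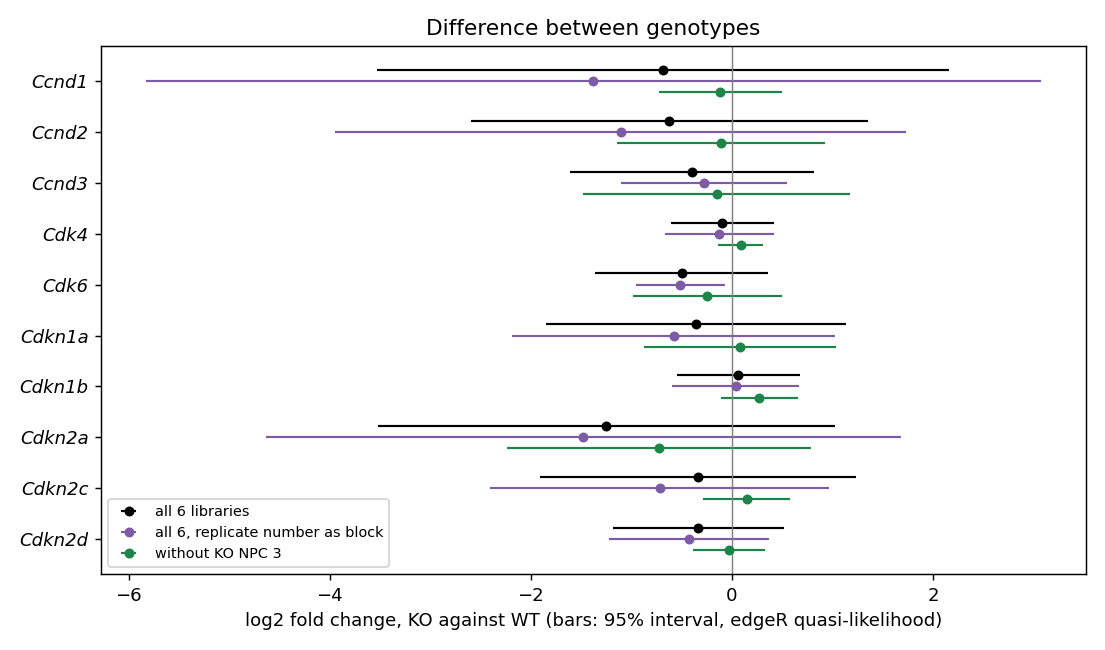
Log2 fold change, KO against WT (x axis), of each gene by edgeR quasi-likelihood with all 6 libraries (black), with the replicate number as a block (purple) and without KO NPC 3 (green), where bars are 95% intervals. The black interval of *Ccnd1* runs from -3.53 to 2.15 and the green one from -0.72 to 0.49, and the only interval that leaves out 0 is that of *Cdk6* with the block, from -0.96 to -0.07.

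*Cdkn1a*, on chromosome 17, encodes p21, an inhibitor that p53 induces after DNA damage and other stress. It was at 54.0, 69.1 and 13.3 CPM in KO and at 86.9, 37.0 and 50.7 CPM in WT libraries. KO NPC 1 and 2 lay between the lowest and the highest WT library, and KO NPC 3 was 2.78-fold below the lowest of the others. KO over WT gave a log2FC of -0.36 (SE 0.62, 95% interval -1.85 to 1.13), and 0.08 (95% interval -0.88 to 1.03) without KO NPC 3. Both intervals cover changes in either direction. The study, by another measure, reported more RNA polymerase II on *Cdkn1a* in KO NPCs by ChIP-seq. It also found more *Cdkn1a* mRNA by RT-qPCR with a larger number of replicates. It regarded such genes as missed by its RNA-seq, possibly because the replicates were few. Its locus in the table runs from 29090976 to 29724205 because of 1 assembled transcript that reaches far beyond the GENCODE gene, which ends at 29100727, and 25 other loci lie across it. The counted length, 3577 bases, is close to the 3553 bases of the GENCODE exons.

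*Cdkn1b*, on chromosome 6 from 134920401 to 134925513, encodes p27, which is set largely by protein turnover and rises in cells that leave the cycle. Its transcript was at 118, 119 and 70.5 CPM in KO and at 115, 85.0 and 94.1 CPM in WT libraries. This was the only gene of the set with a log2FC above 0 in the fit of all 6 libraries, at 0.06 (SE 0.25, 95% interval -0.55 to 0.67, edgeR adjusted p = 0.985), and 0.27 (95% interval -0.11 to 0.66) without KO NPC 3, which was 1.21-fold below the lowest of the others. Scaling by *Rn7sk*, the RNA polymerase III transcript that the study used as its internal control, shifted the median log2FC of all genes tested to -0.26 and that of *Cdkn1b* to -0.18, which is 0.08 above the median. On that scale all 10 genes were below 0, with a median of -0.58, or -0.32 relative to all genes tested, and *Cdkn1b* alone was above the median of all genes. *Rn7sk* itself had a log2FC of 0.15 (SE 0.31) under TMM scaling. The log2 ratio of *Cdkn1a* to *Cdkn1b* counts was -1.44 ± 0.85 (SD, n = 3) in KO and -0.83 ± 0.40 (SD, n = 3) in WT NPCs (difference -0.61, two-sided exact permutation p = 0.5, adjusted 0.8), and the difference was -0.13 without KO NPC 3. In every library *Cdkn1b* had more counts than *Cdkn1a*.

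*Cdkn2a*, on chromosome 4 from 89274471 to 89294653, encodes p16Ink4a from one start and p19Arf, which stabilises p53, from the other. The counts cover both and cannot be divided between them. It was the scarcest of the set by CPM, with 273, 184 and 14 counts in KO and 409, 124 and 428 counts in WT libraries. These correspond to 3.29, 2.53 and 0.238 CPM in KO and 6.48, 1.73 and 6.25 CPM in WT NPCs. WT NPC 1 and 3 were high and WT NPC 2 was below KO NPC 1 and 2, so the genotypes overlapped, with KO NPC 3 lowest by 7.30-fold. The log2FC of -1.25 was the furthest from 0 of the set, with a wide error (SE 0.94, 95% interval -3.52 to 1.02), and it was -0.73 (95% interval -2.24 to 0.79) without KO NPC 3.

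*Cdkn2c*, also on chromosome 4, from 109660876 to 109667189, encodes p18Ink4c, an INK4 inhibitor of dividing and early differentiating neural cells. It was at 127, 92.8 and 16.6 CPM in KO and at 110, 94.7 and 93.4 CPM in WT libraries. The 5 libraries other than KO NPC 3 lay within 1.37-fold of each other, and KO NPC 3 was 5.59-fold below the lowest of them. Between genotypes, the log2FC was -0.33 (SE 0.65, 95% interval -1.91 to 1.24), and 0.14 (95% interval -0.29 to 0.58) without KO NPC 3.

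*Cdkn2d*, on chromosome 9 from 21288410 to 21291407, encodes p19Ink4d, the INK4 inhibitor that neurons keep after their last division. It was at 14.5, 14.4 and 6.16 CPM in KO and at 15.6, 15.4 and 13.2 CPM in WT libraries. KO NPC 3 was the lowest, by 2.15-fold, and the other 5 lay within 1.18-fold of each other. Over all 6 libraries, the log2FC was -0.33 (SE 0.35, 95% interval -1.18 to 0.52), and -0.03 (95% interval -0.39 to 0.33) without KO NPC 3. The log2 ratio of *Cdkn2c* to *Cdkn2d* counts was 1.43 in KO NPC 3 and between 2.62 and 3.14 in the other 5 libraries, with means of 2.42 ± 0.88 (SD, n = 3) in KO and 2.75 ± 0.12 (SD, n = 3) in WT NPCs (difference -0.34, two-sided exact permutation p = 0.8, adjusted 0.8), and the difference was 0.16 without KO NPC 3.

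**Figure D3:**
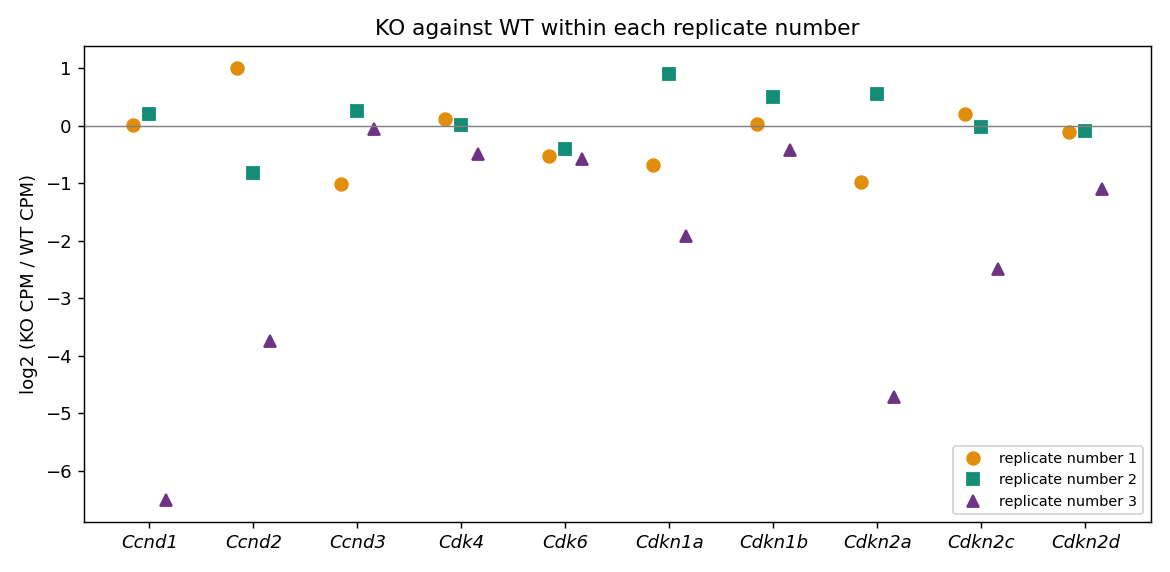
Log2 ratio of KO to WT CPM within replicate number 1, 2 and 3 (circle, square and triangle) for the 10 genes. All 3 points are below 0 for *Cdk6* (ratios of 0.690, 0.751 and 0.665) and *Cdkn2d*, and number 3 is far below the others for *Ccnd1* (0.0110), *Ccnd2* (0.0746), *Cdkn2a* (0.0380) and *Cdkn2c* (0.178).

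KO NPC 3 was thus the lowest of the 6 libraries for 10 of the 10 genes, where it was the lowest for 36.7% of all genes tested. It was more than 2-fold below the next library for 6 of the 10, against 8.77% of all genes tested, namely *Ccnd1*, *Ccnd2*, *Cdkn1a*, *Cdkn2a*, *Cdkn2c* and *Cdkn2d*. Per kilobase, the summed D cyclin level was 10.7 CPM in KO NPC 3 and 257 to 402 CPM in the other 5 libraries. The 5 inhibitors summed to 26.1 against 55.9 to 83.2 CPM per kilobase, and the 2 kinases to 75.5 against 107 to 118 CPM per kilobase. So the sums of the D cyclins, of these 5 inhibitors and of the 2 kinases were all low in that library, with *Ccnd1* carrying the cyclin sum elsewhere. Inhibitor genes outside the set, given below, were mixed. *Cdkn1c* was highest in KO NPC 3, *Cdkn2b* lay within the range of the others and *Cdkn3* was lowest there. Single genes did not follow the order of these sums, since KO NPC 3 was below the next library by 1.05-fold for *Ccnd3* and 1.21-fold for *Cdkn1b*, and by 1.41-fold for *Cdk4* and 1.5-fold for *Cdk6*. Per kilobase, *Cdk4* led the order in KO NPC 3 at 74.2 CPM per kilobase, before *Cdkn1b* at 15.5 and *Ccnd2* at 5.49. Within numbers 1 and 2, where the genes of division were not low, the median log2 difference of the 10 genes was -0.05 and 0.10, and within number 3 it was -1.51 (all genes tested, 0.00, 0.00 and -0.03).

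The genes whose log2 CPM over the 6 libraries was most like that of *Ccnd1* were *Hapln4* (Pearson's r = 1.00, and 0.982 over the 5 libraries without KO NPC 3), *Mthfd1l*, a mitochondrial folate enzyme gene (0.999 and 0.952), and *Kpna2*, a nuclear import gene (0.999 and 0.942). For *Ccnd2* they were *Wrnip1* (0.995 and 0.958), *Bcas2* (0.994 and 0.956) and *Tubgcp3*, a gene of the microtubule-nucleating complex (0.993 and 0.990). For *Cdkn1a* they included *Sertm1* (0.993 and 0.968) and *Rhod* (0.993 and 0.963). They are the closest of 19073 genes over 6 libraries, of which KO NPC 3 sets most of the range, and are given as a description only.

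Other genes of the G1 switch and its targets were read from lists of their own. In the quasi-likelihood fit 0 genes of any list had an adjusted p under 0.05, as was so for all genes tested. Of 13 genes of the RB and E2F families, 2 had a log2FC above 0 and 11 below 0 (median -0.18, and 0.15 without KO NPC 3). *Rb1*, the retinoblastoma gene, was at 189 CPM in KO NPC 3 and 153 to 164 CPM elsewhere (log2FC 0.13), its relative *Rbl1*, itself an E2F target, at 17.6 against 79.5 to 96.9 CPM (-0.28), and *Rbl2* at 53.7 within the 46.4 to 58.7 CPM of the others (-0.07). Of the 4 genes of the cyclin E and CDK2 step, which follows the D cyclins, all were below 0 (median -0.31, and 0.06 without KO NPC 3). *Ccne1* was at 3.97 CPM in KO NPC 3 against 21.9 to 33.6 CPM, *Ccne2* at 3.58 against 36.5 to 53.8 CPM, and *Cdk2* at 24.5 against 54.9 to 59.1 CPM. These cyclin E transcripts were low in the same library as *Ccnd1*.

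Beyond the 10 genes, the inhibitor *Cdkn1c*, which encodes p57, a CIP/KIP protein of cells that leave the cycle, was highest in KO NPC 3. It was at 19.7, 20.1 and 111 CPM in KO and at 26.1, 19.9 and 13.1 CPM in WT libraries (log2FC 1.35, SE 0.75, edgeR adjusted p = 0.983, and 0.01 without KO NPC 3). *Cdkn2b*, the INK4 gene next to *Cdkn2a*, was at 9.96 CPM in KO NPC 3 and 8.82 to 18.4 CPM elsewhere (-0.45), and *Cdkn3*, a phosphatase gene expressed in dividing cells, at 0.814 against 15.0 to 19.3 CPM (-0.60). Thus 1 of these 3 was above 0 and 2 below. Of the 3 genes of the CDK-activating kinase, *Cdk7* was at 0.26, *Ccnh* at -0.17 and *Mnat1* at -0.34 on the log2FC scale.

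Of 8 genes for the turnover of D cyclins and p27, 2 were above 0 and 6 below (median -0.01, and 0.05 without KO NPC 3), among them *Skp2* (-0.18) and *Cks1b* (-0.19), which together mark p27 for destruction, and the scaffold *Cul1* (-0.01). Without KO NPC 3, *Skp2* was at 0.19, *Cks1b* at 0.30 and *Cul1* at 0.14. *Cks1b* was at 8.31 CPM in KO NPC 3 and 44.2 to 65.8 CPM elsewhere. Of 11 upstream regulators, 6 were above 0 and 5 below (median 0.01, and 0.13 without KO NPC 3). *Myc* was at 15.2 CPM in KO NPC 3 against 27.6 to 61.8 CPM, *Mycn* at 21.5 against 3.01 to 7.45 CPM, and *Trp53* at 54.2 against 105 to 132 CPM. The 2 MYC family genes, which act on *Ccnd2* and *Cdk4* promoters in other systems, thus lay on opposite sides of the remaining libraries in KO NPC 3.

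Of 13 p53 targets other than *Cdkn1a*, 2 had a log2FC above 0 and 11 below 0 (median -0.52, and -0.24 without KO NPC 3), and within numbers 1, 2 and 3 the median was -0.29, -0.30 and -1.17. *Mdm2*, the ubiquitin ligase of p53, was at -0.27, *Ccng1* at -0.54 and *Bax*, a pore-forming death gene, at -0.39. *Aen*, an apoptosis-enhancing nuclease gene, was the only one of them at an unadjusted p under 0.05. It was at 21.4, 33.7 and 23.1 CPM in KO and at 94.9, 70.4 and 83.6 CPM in WT libraries, with no overlap and KO NPC 3 between the other KO libraries. Its log2FC was -1.67 (SE 0.24, adjusted p = 0.625 by quasi-likelihood, 0.000340 from the likelihood ratio test and 3.09e-06 from DESeq2), and -1.59 without KO NPC 3. *Cdkn1a*, the best known p53 target, had no such split.

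All 17 E2F targets of S phase and all 12 genes of G2 and M phase had a log2FC below 0, with medians of -0.31 and -0.45, and all 29 were lowest in KO NPC 3. Without it the medians were 0.18 and 0.11. *Ccna2*, the cyclin of S phase, was at 9.99 CPM in KO NPC 3 against 282 to 357 CPM, *Mcm2* at 17.5 against 160 to 207 CPM and *Mcm3* at 9.18 against 150 to 183 CPM. *Ccnb1* was at 5.94 against 196 to 279 CPM, *Ccnb2* at 1.39 against 63.4 to 68.7 CPM and *Cdk1*, the mitotic kinase, at 3.97 against 97.9 to 135 CPM. *Ccnd1* was 52.6-fold below the lowest other library, and *Cdk4* and *Cdkn1b* were 1.41-fold and 1.21-fold below it. Within number 3 the median log2 difference was -3.51 for the S phase targets and -4.83 for G2 and M phase, and within number 1 it was 0.34 and 0.23.

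**Figure D4:**
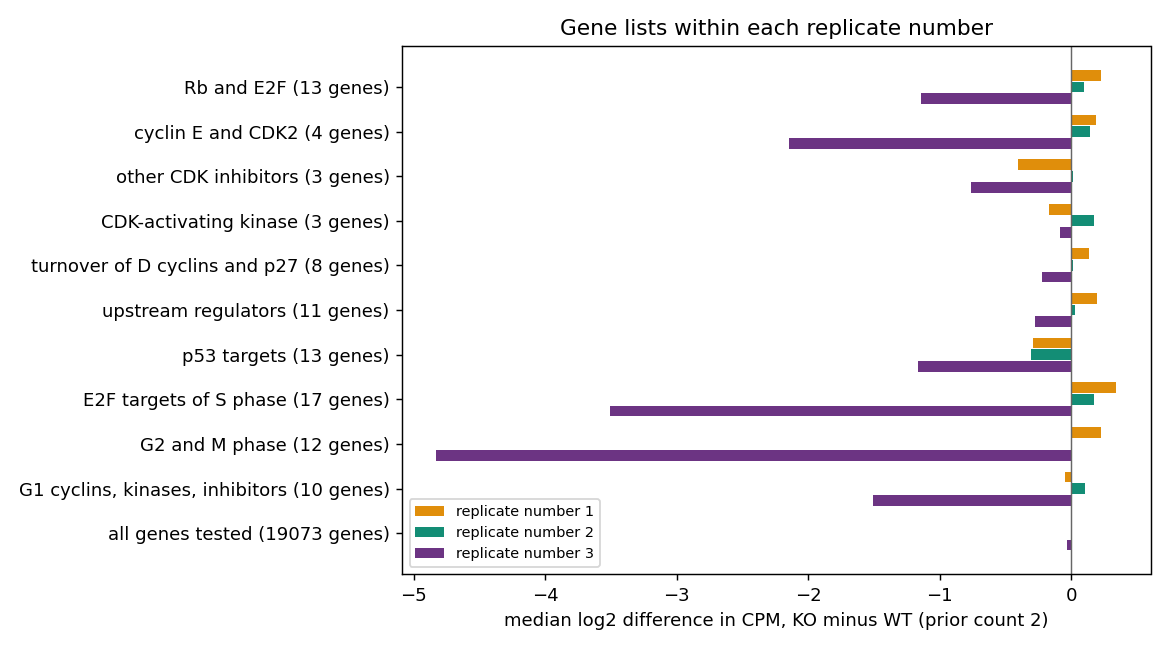
Median log2 difference in CPM, KO minus WT, within replicate number 1, 2 and 3 (orange, green and purple bars) for the gene lists, the 10 genes of the G1 switch and all genes tested. The number 3 bars reach -3.51 for S phase and -4.83 for G2 and M phase, against -1.51 for the 10 genes and -0.03 for all genes tested, while the bars of numbers 1 and 2 stay between -0.41 and 0.34.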

How the data were processed

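Paired-end reads of rRNA-depleted, stranded libraries (NovaSeq) were processed by the authors on GRCm38, and the submitters' processing notes list the tools as Trimmomatic, STAR, Picard, StringTie and edgeR with no version. How reads were counted, and whether by strand, is not given. Whole-number counts per locus of a StringTie assembly, unscaled, are what the deposited table gives. The log2 CPM and *Rn7sk*-relative log2 values that the authors deposited beside them, with group means, were not used. Named loci (53103) were merged by reference gene through their sum, and loci without a name stayed out of library sizes and tests (1.31% to 4.89% of a library).

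Genes were filtered with filterByExpr (minimum count 10, minimum total 15), scaled by TMM and tested by quasi-likelihood (edgeR) with no block, with Benjamini-Hochberg adjustment over 19073 genes and a threshold of 0.05. Standard errors are the log2 fold change divided by the square root of F, and 95% intervals use the test's degrees of freedom. Per-library log2 differences over lists used a prior count of 2. Ratios of counts were compared by two-sided exact permutation. CPM per kilobase used the table's counted length. Versions were edgeR 4.0.16, DESeq2 1.42.0 and limma 3.58.1 in R 4.3.3, and the tests were tested on simulated counts.

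Genotype groups and replicate numbers came from the sample titles. Same-numbered KO and WT libraries correlated in their deviations from the group means at r = 0.413, 0.169 and 0.195 across genes, and no other pair was above 0.0579, so the numbers were taken to pair the cultures. The study also compared its replicates in pairs. The main fit and the permutation tests leave this pairing out, and the block, which keeps it, is given as an alternative. Nothing in the labels says that the cultures came from separate litters, so p-values measure the spread between these samples. The genes described and all lists were chosen with earlier results of these data known. Named beside the 10 genes were the first 3 of each list, list genes at an unadjusted p under 0.05, and the 3 genes most like *Ccnd1*, *Ccnd2* and *Cdkn1a*, of which 1 is not reported here. *Cks1b*, *Sox2*, *Nes*, *Map2*, *Dcx*, *Gad1*, *Cdh5*, *Pdgfrb* and *Kdr* were named after their values were seen or as cell type markers. Alternatives were *Rn7sk* scaling, total counts only, no filter, the likelihood ratio test, DESeq2, the replicate block, leaving out each library, and leaving out both libraries numbered 3. KO NPC 3 left out with the likelihood ratio test or DESeq2 was added after seeing the data.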

Additional observations from a re-analysis of the deposited data

How the results depend on the processing

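Of the 10 genes, 0 passed an adjusted p under 0.05 under any of the alternatives. Over all genes the count was 0 by quasi-likelihood (308 at an unadjusted p under 0.05) and 0 with each library left out in turn, 4 on the *Rn7sk* scale, 5 without the filter, 17 by the likelihood ratio test, 35 by DESeq2, and, without KO NPC 3 and chosen after seeing the data, 68 by the likelihood ratio test and 90 by DESeq2. With the replicate number as a block, which pairs the cultures, the quasi-likelihood test called 0 genes, the likelihood ratio test 38 and, on the *Rn7sk* scale, 22, and the log2 fold changes of *Ccnd1* and *Ccnd2* were -1.38 and -1.11. The median of the 10 genes was -0.55 with the block and -0.38 without it. That of the S phase targets was -0.82 and -0.31, and that of G2 and M phase -1.19 and -0.45. By a sign-flip test of the pairs, the lowest p of the 4 count ratios was 0.25, for *Cdk4* to *Cdk6*. The block changed no other call. The cause of these differences was not tested.

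Directions that turned belonged to values within their error. Leaving out KO NPC 3 and, in brackets, both libraries numbered 3 gave *Cdk4* 0.086 (0.054), *Cdkn2c* 0.14 (0.097), the *Ccnd1* to *Ccnd2* ratio 0.030 (0.0089) and the *Cdkn2c* to *Cdkn2d* ratio 0.16 (0.19). With both left out *Ccnd1* was 0.083 and *Ccnd2* 0.096. *Cdkn1a* was 0.077 without KO NPC 3. By the likelihood ratio test without that library *Cdk4*, *Cdkn1a* and *Cdkn2c* were 0.086, 0.077 and 0.14, and by DESeq2 0.087, 0.079 and 0.15. *Cdkn1b* was -0.18 on the *Rn7sk* scale and -0.15 on it with the block and the likelihood ratio test. With each library left out in turn, the log2 difference ranged from -0.20 to 0.086 for *Cdk4*, -0.75 to 0.077 for *Cdkn1a*, -0.050 to 0.27 for *Cdkn1b*, -0.86 to 0.14 for *Cdkn2c*, -0.73 to 0.22 for *Ccnd3*, -1.56 to 0.030 for the *Ccnd1* to *Ccnd2* ratio and -0.70 to 0.16 for the *Cdkn2c* to *Cdkn2d* ratio. *Cdk6*, *Cdkn2a* and *Cdkn2d* stayed below 0 in every alternative run. The lowest count of the 10 genes in any library was 14, for *Cdkn2a* in KO NPC 3. The effect of depth was not tested.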
